A study of Homo sapiens with 3 samples.

Results

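The V1 sector subunit genes of the vacuolar H+-ATPase (v-ATPase) were examined for peak summits of the tagged fusion HA-PSF-TFE3 in HK-2 cells. The members were 8 genes, ATP6V1A, ATP6V1B2, ATP6V1C1, ATP6V1D, ATP6V1E1, ATP6V1F, ATP6V1G1 and ATP6V1H, and they were chosen by position: a peak summit belonged to a gene when it lay in a window of whole kb that held the gene and about 10 kb on either side. These windows held 21 of the 44983 summits of replicate 8 and 12 of the 28084 summits of replicate 9. HK-2 is an established human proximal tubule line. The cells carried a doxycycline-inducible construct for the HA-tagged fusion of SFPQ, also called PSF, with TFE3, and all libraries, the input included, came from cells given 0.2 µg/ml doxycycline for 24 h. Chromatin was precipitated through the HA tag (ChIP-seq), and the study used separate clones for the 2 ChIP libraries, so clone and library cannot be told apart, and cells without doxycycline were not analysed here. A summit is the base with the highest enrichment of a peak, and its score is the −log10 of the q-value against input DNA, so that a larger score is a stronger call. The ChIP libraries form a single group, so conditions were not compared by any test and all values below are descriptions. Both ChIP libraries were sequenced to a similar depth according to the study's methods, and the input entered only through the authors' peak calls.

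The v-ATPase pumps protons into lysosomes and other acidic compartments. Its V1 sector lies in the cytosol and hydrolyses ATP, and its V0 sector lies in the membrane and carries the protons. TFE3 belongs to the MiT/TFE family of basic helix-loop-helix factors, which bind E-box sequences such as CACGTG, and lysosomal and v-ATPase genes are known targets of this family. The question addressed here was whether the tagged fusion was found at each V1 gene, where in the gene, and whether both libraries showed it.

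Promoter sequences of RefSeq (GRCh38.p14, 250 bases before to 50 after each start) were available for 4 of the 8 members, ATP6V1D, ATP6V1E1, ATP6V1F and ATP6V1G1. They are shown because summits described below lay near the starts of these genes. The sequence under the summits was not read, so the stretches searched need not be those bound. CACGTG, which reads alike on both strands, was found in 1 of these 4, ATP6V1G1. Of all 27305 genes of the promoter table, 8.77% held it in a stretch of this length. The longer TCACGTGA, which contains it, was present in ATP6V1G1 as well, and in 1.18% of all genes. The related CATGTG, on either strand, was present in ATP6V1F and in 13.4% of all genes. No match says only that these letters are not in the stretch searched. Coordinates of the sequences are those of GRCh38.p14 and are not comparable with the summit positions below, which are on hg19. Capitals mark the E-box letters, and 30 bases are shown for each site.
ATP6V1G1, chr9:114587699-114587728, plus strand, E-box beginning 58 bases before the RefSeq start: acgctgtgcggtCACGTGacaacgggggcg
ATP6V1F, chr7:128862730-128862759, plus strand, E-box beginning 114 bases before the start: cgcaggcgtattCACATGgaggccgtgttg
The bases before the starts of ATP6V1G1 and ATP6V1D that lie outside annotated exons, and those between the starts of ATP6V1E1 and its neighbour BCL2L13, hold none of these letters. The stretch printed ends 64 bases before the start in ATP6V1G1 and 57 in ATP6V1D. The E-box of ATP6V1G1, 58 bases before its start, therefore lies outside it.
ATP6V1G1, chr9:114587519-114587705, plus strand: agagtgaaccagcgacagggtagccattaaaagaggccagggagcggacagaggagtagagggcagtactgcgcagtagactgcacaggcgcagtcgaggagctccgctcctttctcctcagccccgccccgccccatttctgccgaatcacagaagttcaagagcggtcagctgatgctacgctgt
ATP6V1D, chr14:67359861-67360054, minus strand: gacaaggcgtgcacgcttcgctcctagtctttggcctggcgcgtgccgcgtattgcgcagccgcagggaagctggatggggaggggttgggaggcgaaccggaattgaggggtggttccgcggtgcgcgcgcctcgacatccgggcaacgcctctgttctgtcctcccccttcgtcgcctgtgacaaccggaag
ATP6V1E1, chr22:17628823-17628854, minus strand: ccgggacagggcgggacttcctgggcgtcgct

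The same search was made in the other genes of the complex. Among the 7 V0 and accessory genes listed, 6 had a promoter in the table, and CACGTG was found in 2 of them, ATP6V0B, a proteolipid of the proton-carrying ring, and ATP6V0D1, which joins the ring to the central stalk. Among the 5 tissue-restricted V1 isoforms listed, 4 had a promoter in the table and 0 held it. These are counts of few genes and set nothing apart. The sites of ATP6V0B and ATP6V0D1 are printed beside that of ATP6V1G1 because they lie at nearly the same place, 57, 59 and 58 bases before the start. The 3 bases before the E-box were ggt in each of the 3 sites, which was noticed on reading the sequences. The 3 bases after it differed: gta in ATP6V0B, agg in ATP6V0D1 and aca in ATP6V1G1. How often ggt precedes CACGTG in all promoters was not counted. ATP6V0B holds another CACGTG, 39 bases before its start, that is preceded by cat, and the CATGTG of ATP6V0C, another proteolipid gene, is preceded by ggt.
ATP6V0B, chr1:43974891-43974920, plus strand: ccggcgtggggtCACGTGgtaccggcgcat
ATP6V0D1, chr16:67481199-67481228, minus strand: cccccttatggtCACGTGaggcgcttgcgc
ATP6V1G1, chr9:114587699-114587728, plus strand: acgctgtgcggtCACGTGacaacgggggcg

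Summits at the V1 genes lay mainly at the gene starts. The nominal start of a gene was taken as the window edge less its 10 kb flank, on the side given by the strand. It is known to about 1 kb. The nominal gene lengths differed from the RefSeq lengths by at most 0.32 kb. In replicate 8, each of the 8 genes had a summit within 2 kb of this start, and in replicate 9, 7 of 8 did. By comparison, 4.88% of all 4 kb tiles of the genome held a replicate 8 summit and 3.28% held a replicate 9 summit. Tiles include intergenic sequence and assembly gaps, and other gene starts were not analysed here, so these shares do not say how common such summits are at promoters.

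The 8 windows summed to 502 kb, and the stretches within 2 kb of a start made up 6.37% of that length. They held 12 of the 21 summits of replicate 8 (57.1%) and 8 of the 12 of replicate 9 (66.7%). The median score of the start-proximal summits was 14.4 in replicate 8 and 11.9 in replicate 9, whereas that of the other summits in the windows was 4.95 and 5.94. The medians of the whole lists were 8.2 and 10.5, and 10 of the 12 start-proximal summits of replicate 8 and 5 of the 8 of replicate 9 lay above them, so the latter were near the level of their list. The highest summit of the window was start-proximal in all 8 genes of replicate 8, and in 6 of the 7 genes with a summit in replicate 9. The exception was ATP6V1E1. A window with only 1 summit adds nothing to these counts, because each such summit was start-proximal. These windows were those of ATP6V1F and ATP6V1G1 in replicate 8, and of ATP6V1A, ATP6V1D and ATP6V1G1 in replicate 9. No summit of either library lay beyond the 3′ end of a V1 gene inside its window, and 4 summits of replicate 8 and 3 of replicate 9 lay before the nominal start. Those of ATP6V1A and ATP6V1B2 lay within 1 kb of it, so their side of the true start is uncertain. The same holds for summits less than 1 kb after a nominal start.

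**Figure D1:**
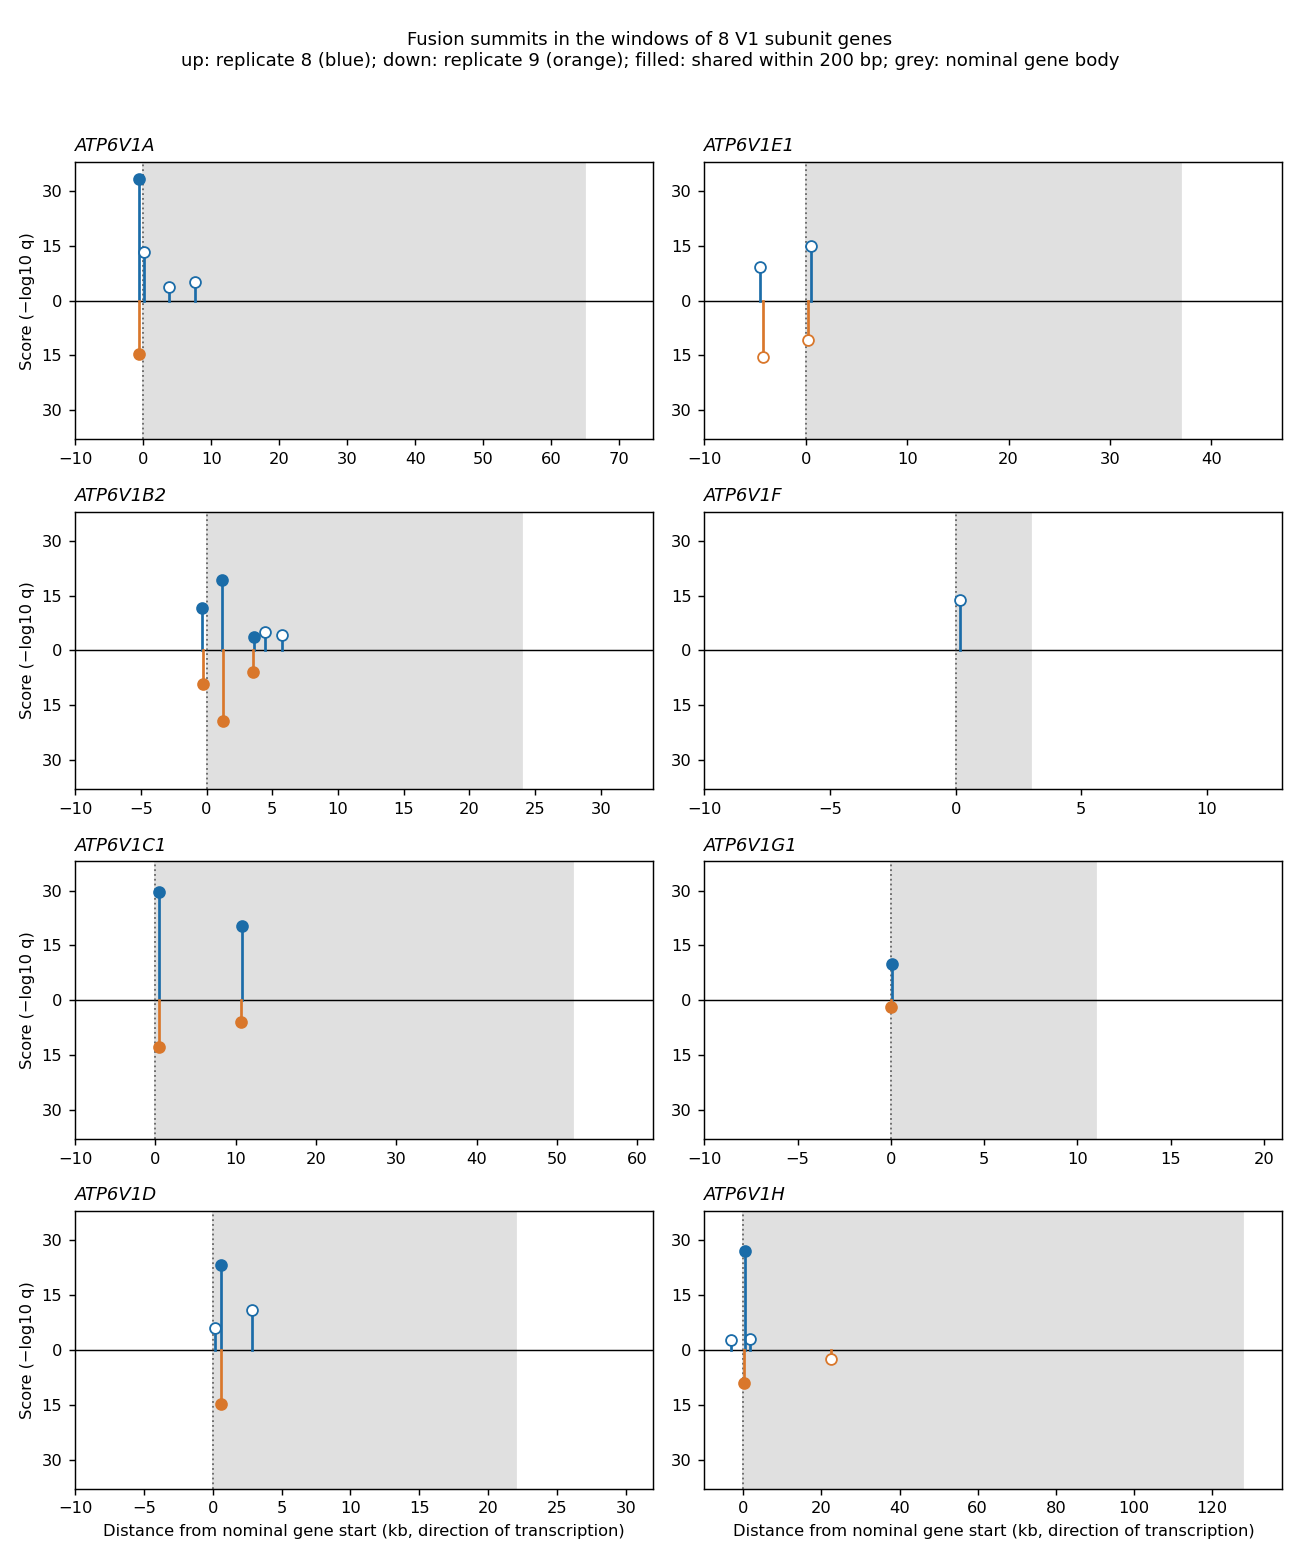
Position of each summit in the 8 gene windows (horizontal axis, kb from the nominal start in the direction of transcription, with a different range in each panel) against its score (vertical axis, −log10 q), replicate 8 upwards in blue and replicate 9 downwards in orange. Filled circles have a partner within 200 bp in the other library, and in replicate 8 the tallest stem of each of the 8 genes stands within 2 kb of the start. ATP6V1F and ATP6V1G1 have only 1 replicate 8 stem.

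Both libraries were then compared site by site. A pair is a summit of each library within 200 bp of the other. The windows held 9 pairs, in 6 of the 8 genes, and 7 of the 9 lay within 2 kb of a start. All 6 genes with a pair, ATP6V1A, ATP6V1B2, ATP6V1C1, ATP6V1D, ATP6V1G1 and ATP6V1H, had at least 1 at the start. Of all tiles of 50.5 kb, the median window length, 22.7% held a shared summit, and of all 4 kb tiles 2.67% did. With a score of at least 10 required in both libraries, 4 genes kept a start-proximal pair: ATP6V1A, ATP6V1B2, ATP6V1C1 and ATP6V1D.

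The share of V1 window summits with a partner was 9 of 21 in replicate 8 (42.9%, exact 95% binomial interval 21.8 to 66.0%) and 9 of 12 in replicate 9 (75.0%, interval 42.8 to 94.5%). Over the whole lists these shares were 47.9% and 76.6%, and both lay inside these intervals, so the recurrence at the V1 genes was near the background. The intervals cover counting error only, and summits of 1 gene are not independent. Within the windows the counts were small, and the difference between starts and other positions was not tested. At the starts, 7 of 12 replicate 8 summits and 7 of 8 replicate 9 summits had a partner, and away from them 2 of 9 and 2 of 4 did.

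The catalytic head of V1 alternates A and B subunits. ATP6V1A encodes the A subunit, which hydrolyses ATP. The gene lies on chromosome 3, nominally at 113466 to 113531 kb of hg19, and its window held 4 summits in replicate 8 and 1 in replicate 9. The highest lay at position 113465393 in replicate 8, with a score of 33.2, and at 113465429 in replicate 9, with a score of 14.6. They were 36 bp apart and lay 0.61 and 0.57 kb before the nominal start. It was the highest score at any V1 gene in replicate 8, within the top 5.42% of that list, but at 37.7% of the replicate 9 list. NAA50, an N-terminal acetyltransferase gene, lies next to ATP6V1A on the opposite strand, on the side of its start. This summit lay on that side of the nominal start, which is known to about 1 kb. Which of the promoters the summit belongs to was not tested. Replicate 8 alone had a further summit 0.15 kb after the start, with a score of 13.4, and weaker ones 3.81 and 7.66 kb after it, with scores of 3.78 and 4.99.

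ATP6V1B2 encodes the widely expressed B subunit of the head. The gene lies on chromosome 8, nominally at 20055 to 20079 kb, and its window was the only one with 3 pairs. A pair at 20054690 in replicate 8 and 20054704 in replicate 9, 14 bp apart and 0.31 and 0.30 kb before the nominal start, had scores of 11.7 and 9.19. A pair at 20056168 and 20056239, 1.17 and 1.24 kb after the start, had a score of 19.2 in both libraries. The pair inside the gene was thus the stronger in each library, and it had the highest start-proximal score of replicate 9. The last pair, 3.61 and 3.56 kb after the start, had scores of 3.65 and 5.92 and was the only pair at a V1 gene that ranked better in replicate 9. Replicate 8 alone had 2 more summits, 4.44 and 5.73 kb after the start, with scores of 4.95 and 4.15.

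**Figure D2:**
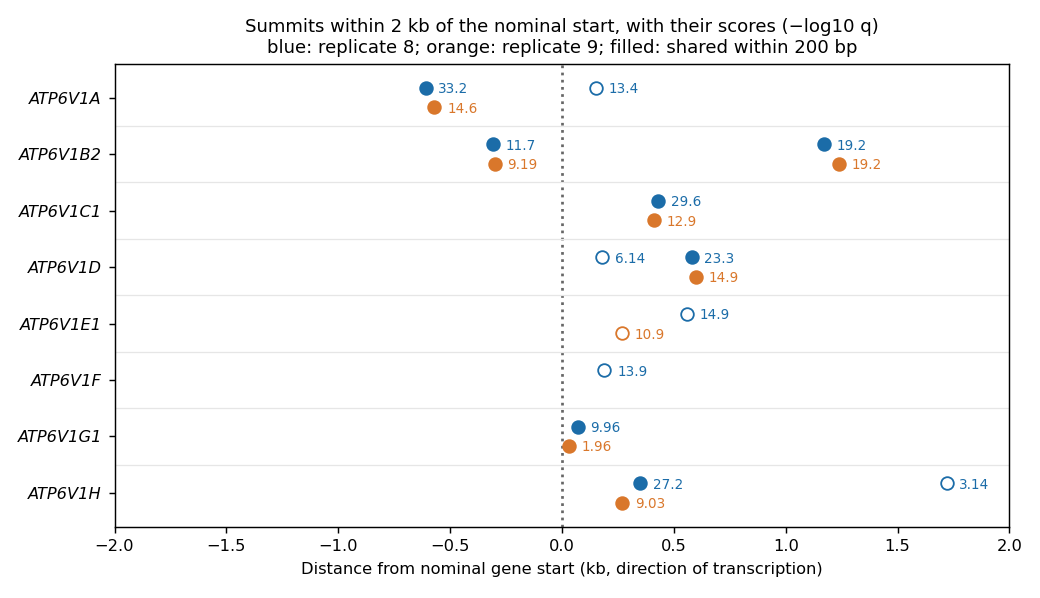
Summits within 2 kb of the nominal start of each V1 gene (horizontal axis, kb in the direction of transcription; the start is known to about 1 kb), with the score (−log10 q) printed beside each point. Replicate 8 is blue and replicate 9 orange, and filled points are shared within 200 bp: 7 pairs at 6 genes, with ATP6V1E1 and ATP6V1F unpaired.

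The central rotor of V1 holds the D and F subunits. ATP6V1D (chromosome 14, nominally 67805 to 67827 kb) had a start-proximal pair at 67826419 and 67826397, 22 bp apart and 0.58 and 0.60 kb after the start, with scores of 23.3 in replicate 8 and 14.9 in replicate 9. EIF2S1, which encodes the alpha subunit of the translation initiation factor eIF2, lies next to ATP6V1D on the opposite strand, on the side of its start. Which of the promoters the pair belongs to was not tested. Replicate 8 alone had summits 0.18 kb after the start, with a score of 6.14, and 2.87 kb after it, with a score of 10.9.

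ATP6V1F (chromosome 7, nominally 128503 to 128506 kb) was the only V1 gene without a replicate 9 summit in its window. It had 1 summit in replicate 8, at 128503192, 0.19 kb after the nominal start, with a score of 13.9, and 0 in replicate 9. The nearest replicate 9 summit was 33.5 kb away. The window is the shortest of the 8, at 23 kb. The score of 13.9 lay within the top 29.0% of the replicate 8 list and exceeded the 9.96 of ATP6V1G1, which was found in both libraries. FLNC, which encodes filamin C, lies upstream on the same strand, with its antisense RNA FLNC-AS1 on the other. To which of these genes the summit belongs was not tested. A missing summit says only that the site did not pass the authors' threshold in that library. Over the whole replicate 8 list, 47.9% of summits had a replicate 9 partner within 200 bp.

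Subunits E and G form the peripheral stalks that hold the head still. ATP6V1E1 (chromosome 22, nominally 18075 to 18112 kb) had 2 summits in each library. The start-proximal summits lay at 18111435 in replicate 8 and 18111726 in replicate 9, with scores of 14.9 and 10.9. They were 0.56 and 0.27 kb after the start and 291 bp apart, beyond the 200 bp limit, so they did not count as shared. With 500 bp allowed they did, and the genes with a shared start-proximal summit then numbered 7. The other summits lay 4.46 kb before the start in replicate 8, with a score of 9.32, and 4.21 kb before it in replicate 9, with a score of 15.5, and were 248 bp apart. This upstream site was the higher of both in replicate 9 and the lower in replicate 8. It lies on the side of BCL2L13, a BCL2 family gene whose start faces that of ATP6V1E1. Which of both genes the summits of this window belong to was not tested.

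ATP6V1G1 (chromosome 9, nominally 117350 to 117361 kb) had the lowest best start-proximal score of the V1 genes in replicate 8, and in replicate 9 among the genes with such a summit. Its summits at 117350068 in replicate 8 and 117350032 in replicate 9 were 36 bp apart and lay 0.07 and 0.03 kb after the nominal start. That start is known to about 1 kb, so the genes cannot be ordered by this distance. The scores were 9.96 and 1.96. The latter ranked 27779 of the 28084 summits of replicate 9, where the lowest score was 1.33. Among the 4 members with a promoter sequence available, ATP6V1G1 was the one that held CACGTG. The promoters of ATP6V1A, ATP6V1B2, ATP6V1C1 and ATP6V1H were not searched, so motif and score cannot be compared over the V1 genes. No other summit lay in its window.

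Subunits C and H join V1 to the rest of the enzyme and regulate its assembly and activity. ATP6V1C1 (chromosome 8, nominally 104033 to 104085 kb) had 2 pairs and no unpaired summit. At the start, positions 104033427 and 104033405, 22 bp apart and 0.43 and 0.41 kb after it, had scores of 29.6 in replicate 8 and 12.9 in replicate 9. The other pair, at 104043818 and 104043714, lay 10.82 and 10.71 kb into the gene, with scores of 20.3 and 5.96. It was the only pair away from a start with a score over 10 in either library, and its summits were 104 bp apart, the most of the 9 pairs.

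ATP6V1H (chromosome 8, nominally 54628 to 54756 kb) has the longest window, 148 kb, and had 0.203 summits per 10 kb in replicate 8, the fewest of the 8 genes, and 0.135 in replicate 9, where ATP6V1A at 0.118 and ATP6V1F with 0 summits had fewer. Its start-proximal pair at 54755647 and 54755726, 79 bp apart and 0.35 and 0.27 kb after the start, had scores of 27.2 in replicate 8 and 9.03 in replicate 9. Weak summits were found in replicate 8 alone 1.72 kb after the start and 3.04 kb before it, with scores of 3.14 and 2.68. In replicate 9 alone a summit 22.56 kb into the gene had a score of 2.46. RGS20, a regulator of G protein signalling, lies next to ATP6V1H on the opposite strand, on the side of its start. Which of the promoters the start-proximal pair belongs to was not tested.

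The order of the genes by their highest start-proximal score differed between libraries. In replicate 8 it was ATP6V1A at 33.2, ATP6V1C1 at 29.6, ATP6V1H at 27.2, ATP6V1D at 23.3, ATP6V1B2 at 19.2, ATP6V1E1 at 14.9, ATP6V1F at 13.9 and ATP6V1G1 at 9.96. In replicate 9 it was ATP6V1B2 at 19.2, ATP6V1D at 14.9, ATP6V1A at 14.6, ATP6V1C1 at 12.9, ATP6V1E1 at 10.9, ATP6V1H at 9.03 and ATP6V1G1 at 1.96. ATP6V1G1 came last of the genes with a summit in both, and ATP6V1H moved from the third to the sixth place. With 1 value per library, neighbours in these orders cannot be told apart.

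**Figure D3:**
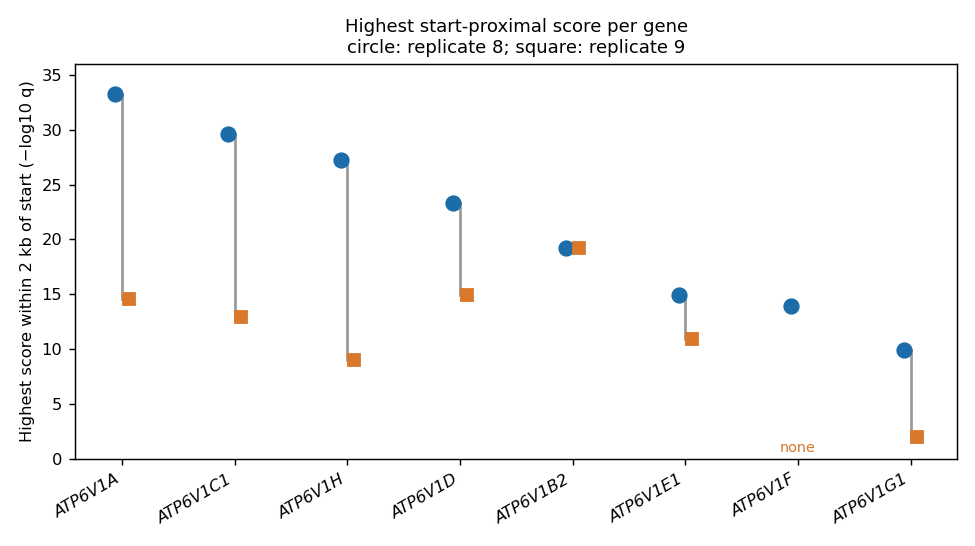
Highest score (−log10 q, vertical axis from 0) within 2 kb of the nominal start of each V1 gene, in replicate 8 (circles) and replicate 9 (squares), with genes ordered by replicate 8. The values of ATP6V1B2 coincide at 19.2, and replicate 8 lay above replicate 9 in the other genes that had a summit in both.

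The pairs at V1 genes mostly scored higher in replicate 8. This held for 8 of the 9 pairs, among them the inner start-proximal site of ATP6V1B2, whose scores of 19.2 are equal after rounding, with ratios of replicate 8 to replicate 9 scores from 0.616 to 5.09 and a median of 2.28. Over all 21518 pairs of the lists, 53.5% scored higher in replicate 8 and the median ratio was 1.05. Scores are not normalised between libraries, so ranks were compared as well. As a percent of its own list, where a lower value is a stronger site, 8 of the 9 pairs ranked better in replicate 8, by 9.65 to 57.2 percentage points. The same was true of 74.4% of all pairs, and the replicate 8 list is the longer. Over all pairs, those that ranked better in replicate 9 included, the median gap was 10.4 points. It is therefore not on a par with the range given for the 8 pairs. The largest gaps were 57.2 points at ATP6V1G1, 55.8 at the inner site of ATP6V1C1 and 46.5 at ATP6V1H. The part of sequencing depth in this difference was not tested.

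**Figure D4:**
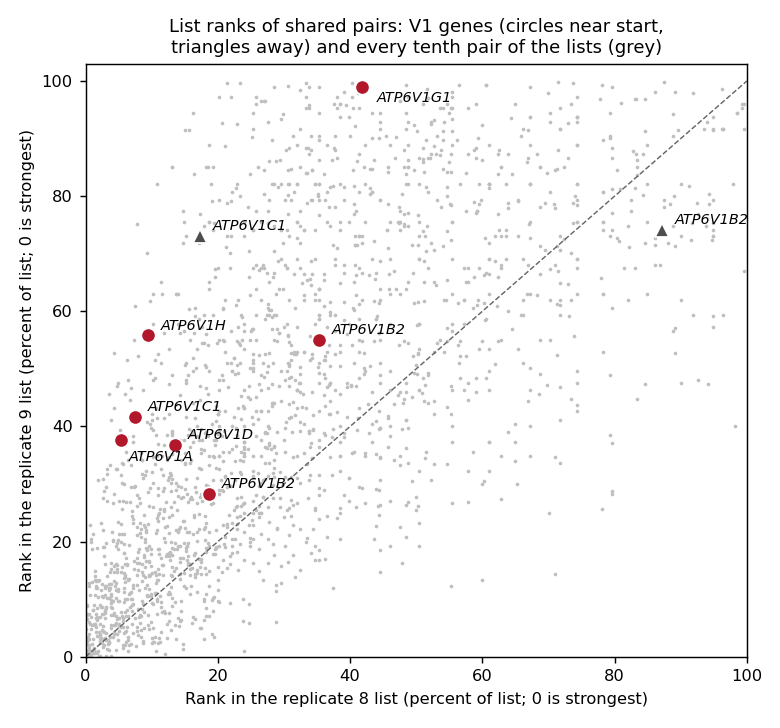
Rank of each shared pair as a percent of the replicate 8 list (horizontal axis) and of the replicate 9 list (vertical axis), where 0 is the strongest. Red circles are the 7 start-proximal pairs of V1 genes, dark triangles the 2 others and grey dots a thinned set of all pairs of the lists, and 8 of the 9 V1 pairs lie above the dashed line of equal rank.

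Positions within pairs were close by definition, because a pair had to lie within 200 bp. The summits of ATP6V1E1, 291 and 248 bp apart, were left out by this limit. The summits of the 9 pairs lay 14 to 104 bp apart, with a median of 36 bp, and those of all pairs had a median of 52 bp. The windows held a mean of 16.5 ± 6.36 summits per library (SD, n = 2). Their density was 0.418 per 10 kb in replicate 8 and 0.239 in replicate 9, compared with 0.147 and 0.0919 over the genome. The genome values include intergenic sequence and assembly gaps, and windows of other genes were not analysed here. Replicate 8 had 1.75 times as many V1 summits as replicate 9, and its whole list was 1.6 times as long. Requiring a score of at least 10 left 11 summits in replicate 8 and 6 in replicate 9.

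The windows ended near further sites. No summit lay in the outer 5 kb of any window. In the next 10 kb outside, 8 summits of replicate 8 and 5 of replicate 9 were found. The closest was a shared site 2.38 and 2.42 kb past the window of ATP6V1G1, on the 3′ side towards TMEM268, at 117373383 and 117373416 with scores of 24.1 and 11.0. These exceeded the scores of 9.96 and 1.96 at the start of ATP6V1G1 itself. A shared site 3.29 and 3.33 kb before the window of ATP6V1C1 had scores of 16.7 and 10.5, and another 8.74 and 8.75 kb past that of ATP6V1A had scores of 38.8 and 29.4.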

How the data were processed

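HA-PSF-TFE3 ChIP-seq libraries (replicates 8 and 9) and 1 input DNA library of induced HK-2 cells were grouped by their labels. The design text of the series names PRCC-TFE3 instead, and the labels were followed. Peaks had been called by the authors with MACS2, per ChIP library and against input, without pooling. The deposited values are 1 summit per peak with a score that is −log10 of the q-value, not normalised between libraries. The labels name hg19, and the study elsewhere names hg38. Because 364 and 262 summits lay beyond hg38 chromosome ends, hg19 was taken, without a test against its sequence, and no coordinate was converted. Strand came from GENCODE v44, and gene neighbours, lengths and promoters from RefSeq GRCh38.p14.

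Members and lists were chosen with earlier results of these data known. All 8 genes are named. Sites named were, per gene, the pair with the best lower rank and each pair within 2 kb of the start; the other summits of the windows are named so that all are accounted for. Summits are counted from 1. A summit was shared if the other library had one within 200 bp, and pairs were mutually nearest. Tiles ran from the start of each chromosome to its last summit. Shares have exact (Clopper-Pearson) 95% intervals. Distance functions were tested on simulated lists. The lists hold no read counts, so no precision from depth is stated. The study's methods state similar read totals for both libraries. Alternatives were other distances, minimum scores, flanks, merging, equal list lengths and leaving out each library. V0 genes were not searched for summits, because no hg19 annotation was used here. Python 3.11.15, numpy 2.4.6, pandas 2.3.3, scipy 1.17.1 and matplotlib 3.10.9 were used.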

Additional observations from a re-analysis of the deposited data

How the results depend on the processing

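The number of genes with a shared start-proximal summit was 6. It was 6 within 1 kb or 5 kb of the start, 5 when partners had to lie within 50 bp, 7 within 500 bp, and 4 where both scores had to reach 10. Where a start-proximal summit in a single library was enough, shared or not, the genes numbered 7 in replicate 9 and 8 in replicate 8. The number with a shared summit anywhere in the window moved in the same way. The mean number of summits per library fell from 16.5 to 8.5 with a minimum score of 10 and rose to 23 with flanks of 20 kb. It was 12 and 21 with a single library. Density fell from 0.329 to 0.169 per 10 kb with a minimum score of 10, as fewer summits are counted, and was 0.239 and 0.418 with a single library. The share of replicate 9 summits with a partner fell from 75.0% to 41.7% within 50 bp, as follows from the shorter distance, and the other alternatives stayed within its interval, as all did for replicate 8. Of the 4 members with a promoter sequence available, 2 held an E-box when CATGTG was allowed beside CACGTG. TCACGTGA, which was added after the data were seen, was held by 1. No paired analysis was possible because there is 1 group. The lists hold no reads under a site, so whether a summit found in 1 library alone, such as that of ATP6V1F, has signal below the threshold in the other was not tested.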
